A study of Mus musculus with 60 samples.

Results

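Chemokines are small secreted proteins that direct the movement of leukocytes, and fibroblasts are one of their sources in inflamed or growing tissue. This account follows 10 chemokine genes, Ccl2, Ccl5, Ccl7, Ccl9, Ccl20, Cxcl1, Cxcl5, Cxcl10, Cxcl12 and Cx3cl1, of the 18194 genes named on the arrays. They were taken by symbol, and where several probe sets carried a symbol the one with the highest mean over the arrays stood for the gene. Of these 10 genes, 9 were brighter than the array median on all 60 arrays. Ccl20 passed the filter on dim genes only through the 3 arrays of one treatment, 2, 4-diaminotoluene (DAT) at 700 µM for 24 h, so its difference in that treatment was in part a condition for being tested at all.

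Chemokines signal through receptors on the cell surface that couple to G proteins. Cxcl1 and Cxcl5 attract neutrophils through Cxcr2, Ccl20 attracts lymphocytes and dendritic cells through Ccr6, Ccl2 and Ccl7 attract monocytes through Ccr2, and Cxcl10 attracts activated T cells through Cxcr3. Genes such as Cxcl1 and Ccl20 are textbook targets of NF-kappaB, whereas Cxcl10 and Ccl5 are widely used as readouts of interferon signalling, although both also have NF-kappaB sites. Cxcl12 is made by stromal cells at steady state, and Cx3cl1 is made as a membrane-bound protein that proteases release.

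The cells were Balb/c 3T3 mouse fibroblasts, an established immortalised line used in assays of chemical cell transformation, so all groups share one line and hold no other cell type by design. They were exposed to 2-Acetylaminoflourene (AAF), benzo(a)pyrene (BaP), DAT or 3-methycholanthrene (MCA), or to the vehicle dimethyl sulfoxide (DMSO) at 0.75%. BaP and MCA are polycyclic aromatic hydrocarbons that bind the aryl hydrocarbon (Ah) receptor, and AAF and DAT are aromatic amines. In the first set, called here the literature-dose set, cells received AAF at 25 µM, BaP at 0.5 µM, DAT at 50 µM or MCA at 2 µM for 24 h or 120 h. In the second, the IC20 set, doses were chosen for 20% growth inhibition: AAF at 10 µM, BaP at 1.5 µM, DAT at 700 µM or MCA at 20 µM for 24 h, and AAF at 10 µM, BaP at 0.1 µM, DAT at 0.2 µM or MCA at 0.1 µM for 120 h. DMSO controls were run within each set and time, which gave 20 groups of 3 arrays. The labels number the replicates but do not say that they were separate cultures, so the p-values measure only how far these arrays vary, and that variation may be technical.

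Levels below are the deposited signal intensities of single Affymetrix arrays, in the order of replicates 1 to 3. Changes are differences in log2(intensity + 16) after quantile normalization within a set, with their standard error (SE) and a p-value from limma adjusted over 12637 genes by the Benjamini-Hochberg method. A gene was called changed at an adjusted p under 0.05. The sets were scaled differently, with a trimmed mean of 500.0 on every array of the IC20 set and 153 to 188 in the literature-dose set, so levels were compared only within a set and for the same probe set. The 4 treatments of one set and time share their 3 DMSO arrays, and their results are therefore not independent of each other.

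The promoters of Cxcl1, Ccl20 and Cxcl10 are shown because the contrast described below sets textbook NF-kappaB targets beside genes used as interferon readouts. That grouping was made beforehand and does not come from these data. Each line gives the 250 bases before the annotated transcript start in RefSeq (GRCm38.p6), 5′ to 3′ on the gene's strand, with motif matches in capitals. The windows are chr5:90890995-90891244 on the plus strand for Cxcl1, chr1:83116516-83116765 on the plus strand for Ccl20, and chr5:92348890-92349139 on the minus strand for Cxcl10.
Cxcl1: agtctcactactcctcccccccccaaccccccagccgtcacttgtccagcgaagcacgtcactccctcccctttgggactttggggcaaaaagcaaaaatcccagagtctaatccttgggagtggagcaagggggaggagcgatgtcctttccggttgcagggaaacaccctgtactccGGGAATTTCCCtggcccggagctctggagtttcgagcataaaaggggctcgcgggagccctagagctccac
Ccl20: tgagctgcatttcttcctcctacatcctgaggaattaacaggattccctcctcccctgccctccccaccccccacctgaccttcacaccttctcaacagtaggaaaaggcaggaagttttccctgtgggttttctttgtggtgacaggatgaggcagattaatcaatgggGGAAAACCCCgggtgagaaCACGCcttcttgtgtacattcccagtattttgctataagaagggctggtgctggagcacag
Cxcl10: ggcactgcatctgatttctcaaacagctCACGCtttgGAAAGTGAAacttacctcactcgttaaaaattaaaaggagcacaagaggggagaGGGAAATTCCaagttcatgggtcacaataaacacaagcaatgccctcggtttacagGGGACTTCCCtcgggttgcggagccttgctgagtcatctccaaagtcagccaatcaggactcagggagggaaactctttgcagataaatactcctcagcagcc
Motifs were searched on both strands: the kappaB consensus, the core of the interferon-stimulated response element written GAAANNGAA, and the Ah receptor core GCGTG, which reads CACGC on the other strand. The Cxcl1 window held a kappaB match 71 bases before the start, which overlaps a second match on the opposite strand at 70 bases. The Ccl20 window held a kappaB match at 80 bases and an Ah receptor core at 61 bases, both on the minus strand. The Cxcl10 window held kappaB matches at 159 and 103 bases, an interferon element core at 213 bases and an Ah receptor core at 222 bases. Ccl9 had a kappaB match at 35 bases, and Cxcl12 and Cx3cl1 had no match to any of the motifs, which says only that these letters are not in the window. Over 32851 RefSeq promoter windows of the same length, 3.9% held the kappaB consensus, 7.13% the interferon core and 28.2% the Ah receptor core. Promoters were matched for 6 of the 10 genes, and Ccl2, Ccl5, Ccl7 and Cxcl5 are named only. A match is a description of the letters and no evidence of binding.

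Several of the genes share a chromosome on the reference annotation (GRCm38.p6). Cxcl5 (chr5:90759298-90761625), Cxcl1 (chr5:90891245-90893121) and Cxcl10 (chr5:92346638-92348889) are on chromosome 5. Ccl2 (chr11:82035577-82037452), Ccl7 (chr11:82045712-82047525), Ccl5 (chr11:83525778-83530518) and Ccl9 (chr11:83572917-83578636) are on chromosome 11. Ccl20 (chr1:83116766-83119167), Cxcl12 (chr6:117168535-117181368) and Cx3cl1 (chr8:94772180-94782427) stand apart from these.

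At least 1 chemokine gene was called in 7 of the 8 treatments of the literature-dose set, and the counts were highest at 120 h. At 120 h, 5 of the 10 genes rose and 1 fell with BaP, against 26.8% of all genes called in either direction. With DAT, 5 rose and 3 fell, against 23.7% of all genes. With MCA, 3 rose and 4 fell, against 39.1% of all genes. With AAF, 1 rose and none fell, against 0.356%. The median change of the 10 genes was 0.35 with BaP, 0.24 with DAT, -0.02 with MCA and -0.05 with AAF, while the median of all tested genes lay between -0.02 and -0.00 in these 4 comparisons. The share of all genes called is the background for each count, and no test was made of the difference between them. Fibroblast markers moved in the same comparisons: of 9, 7 were called lower and 1 higher with MCA, 4 lower and 1 higher with BaP, and 3 lower and 1 higher with DAT. Their part in the chemokine results was not tested, and in bulk RNA fewer cells making a chemokine cannot be told apart from less RNA per cell.

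At 24 h in the literature-dose set, 2 genes rose and 3 fell with BaP, against 9.42% of all genes. With MCA, 2 rose and 2 fell, against 2.22%. With AAF, 1 rose and 1 fell, against 0.91%. No chemokine passed limma's adjusted threshold with DAT at 50 µM, where 0.174% of all genes were called and 5 of the 10 chemokines had an unadjusted p under 0.05. With the replicate number as a block in the fit, Cxcl5 passed there (0.32, adjusted p = 0.0464) and with AAF (0.34, adjusted p = 0.0228).

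Fewer changes were called in the IC20 set. Its arrays were noisier (median residual SD 0.218 on the log2 scale, against 0.114 in the literature-dose set), and its concentrations differed too. The part of each in the lower counts was not tested. DAT at 700 µM raised 4 of the 10 genes at 24 h and lowered none, against 7.85% of all genes. Ccl20 is one of these 4, and of the other 9 genes 3 rose. BaP at 1.5 µM raised 1 gene and lowered 2, against 2.4%, and MCA at 20 µM raised 1 and lowered 1, against 1.31%. None was called with AAF at 10 µM for 24 h by limma, where 0.0237% of all genes were called and 3 chemokines had an unadjusted p under 0.05. At 120 h, 1 gene rose and 3 fell with MCA (2.47% of all genes), 1 rose and 1 fell with BaP (1.44%), and 1 fell with AAF (0.562%). With DAT at 0.2 µM none was called by limma, 0% of all genes were called, and 0 chemokines had an unadjusted p under 0.05. Over the 80 chemokine tests of each set, 19 were called higher and 14 lower in the literature-dose set, where 6.38% of all gene tests were higher and 6.47% lower. The IC20 set had 8 that were higher and 8 lower, beside 1.06% and 0.947% of all gene tests. These higher calls include Ccl20 with DAT at 700 µM, which passed the filter on dim genes only through the arrays of that treatment.

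**Figure D1:**
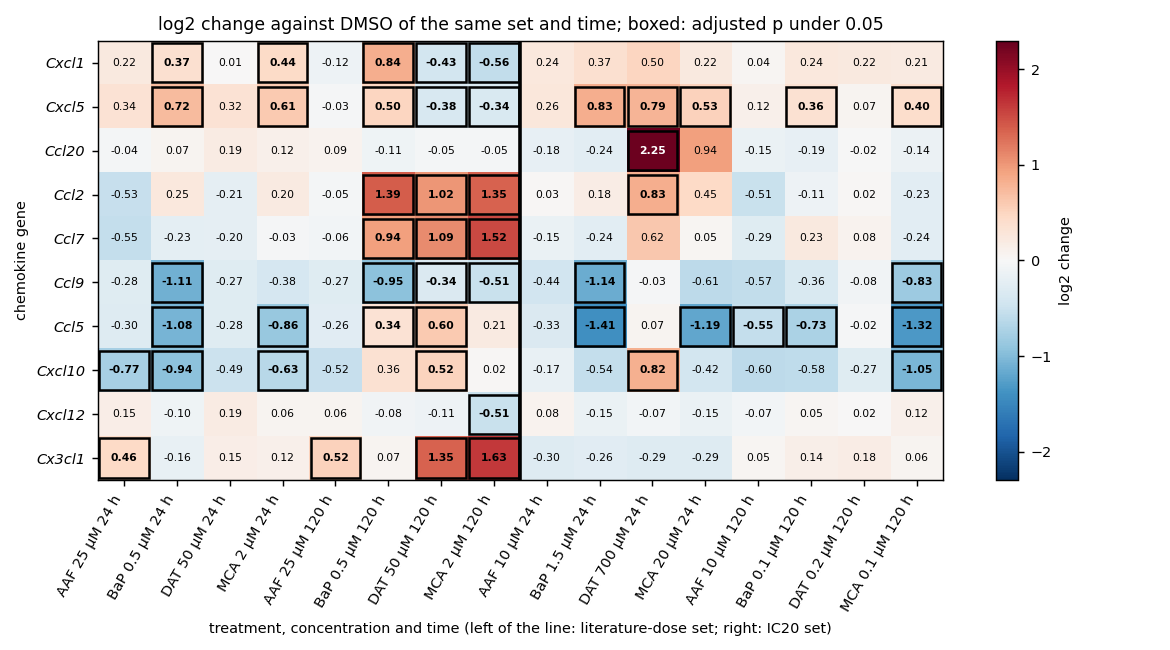
Log2 change of each of the 10 chemokine genes (rows) in each of the 16 treatments against DMSO of the same set and time (columns), with red for higher, blue for lower the value printed in each cell and a box around called changes. Ccl2 and Ccl7 are red in BaP, DAT and MCA at 120 h of the literature-dose set, Ccl9 is blue or near 0 in every column, and Ccl20 is strongly red in 1 column, DAT 700 µM (2.25).

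Cxcl1 and Cxcl5, the neutrophil chemoattractants, rose at 24 h with the polycyclic hydrocarbons BaP and MCA in the literature-dose set. At 120 h in that set they rose with BaP but fell with DAT and MCA. Cxcl5 rose in 5 of the 8 treatments of the IC20 set and Cxcl1 in none.

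In the literature-dose set at 24 h, Cxcl1 measured 627, 553 and 796 in DMSO, 849, 878 and 861 with BaP and 913, 826 and 944 with MCA. All 3 arrays of both treatments lay above all 3 DMSO arrays. The log2 change was 0.37 ± 0.10 (SE, n = 3 against 3; adjusted p = 0.0152) with BaP and 0.44 ± 0.10 (adjusted p = 0.0105) with MCA. Both calls were lost in a shared fit of all 60 arrays (adjusted p up to 0.371). They were also lost without DMSO replicate 1 or 2, the BaP call without BaP replicate 2 (up to 0.105) and the MCA call without MCA replicate 1 or 3 (up to 0.09).

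By 120 h the Cxcl1 level in DMSO was 1167, 1612 and 1697. BaP gave 2426, 2701 and 2770.1, all above DMSO, a change of 0.84 ± 0.10 (adjusted p = 1.67e-07), or 1.80-fold. DAT gave 1081, 952 and 1225 and MCA 880.0, 1119 and 1064, which after normalization lay below every DMSO array. The changes were -0.43 ± 0.10 with DAT (adjusted p = 0.00188) and -0.56 ± 0.10 with MCA (adjusted p = 4.46e-05). AAF, with 1358, 1334 and 1390.5, lay inside the DMSO range. The DAT call was lost in the shared fit (adjusted p = 0.0589), and the other probe sets for Cxcl1 gave the same directions at 120 h with BaP, DAT and MCA.

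Over the IC20 set Cxcl1 varied between 2631 and 5133. DMSO at 24 h measured 3023, 3422 and 2770.3, and DAT at 700 µM gave 4069, 4831 and 4367, all higher. This change of 0.50 ± 0.18 missed the threshold (adjusted p = 0.0941) but passed it when the replicate number was added to the fit as a block (adjusted p = 0.00821). The other 7 treatments of the IC20 set gave changes between 0.04 and 0.37, none of them called.

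Cxcl5 measured 443, 571 and 580.0 in DMSO at 24 h of the literature-dose set, 926, 866 and 901 with BaP and 718, 882 and 856 with MCA. Its changes were 0.72 ± 0.12 with BaP (adjusted p = 0.000119) and 0.61 ± 0.12 with MCA (adjusted p = 0.0028), with no overlap between treated and DMSO arrays. At 120 h the DMSO arrays stood at 1217, 1545 and 1596 and the BaP arrays at 1824, 2065 and 2278, a rise of 0.50 ± 0.12 (adjusted p = 0.00201). DAT (1047, 985 and 1303) lowered Cxcl5 by -0.38 ± 0.12 (adjusted p = 0.0217) with overlapping arrays, and MCA (1017, 1270.2 and 1224) by -0.34 ± 0.12 (adjusted p = 0.0231). Both falls were lost without quantile normalization and without DMSO replicate 2 or 3, the DAT call also without DAT replicate 1 or 2 and the MCA call without MCA replicate 1 (adjusted p up to 0.142).

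Cxcl5 measured 2294, 2304 and 2688 in DMSO at 24 h of the IC20 set. It measured 4296, 3875 and 4724 with BaP at 1.5 µM, 4580.4, 3479 and 4917 with DAT at 700 µM, and 3417, 3194 and 3873 with MCA at 20 µM. Every treated array lay above every DMSO array. The rises were 0.83 ± 0.09 (adjusted p = 2.8e-06), 0.79 ± 0.09 (adjusted p = 2.94e-06) and 0.53 ± 0.09 (adjusted p = 0.00195). At 120 h, DMSO stood at 3288, 3653 and 3748, BaP at 0.1 µM at 4725, 4324 and 4650.0, and MCA at 0.1 µM at 4401, 4666 and 4939.8. These smaller rises were 0.36 ± 0.09 (adjusted p = 0.0499) and 0.40 ± 0.09 (adjusted p = 0.0123). Without quantile normalization the BaP and MCA calls of this set, at both times, were lost (adjusted p up to 0.632). The 120 h BaP call was lost without any one of its 6 arrays (up to 0.199) and the 120 h MCA call without DMSO replicate 1 or MCA replicate 3 (up to 0.075).

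Ccl20 was near the floor of the arrays in almost all groups and rose in 1 of 16 treatments, DAT at 700 µM for 24 h. In the literature-dose set its intensity ranged from 4.42 to 16.4, well under the array medians of 41.2 to 47.1. DMSO at 24 h of the IC20 set measured 7.11, 5.92 and 26.9, and DAT at 700 µM gave 108, 83.9 and 130.1. These 3 arrays are the only ones of 60 on which Ccl20 exceeded the array median, which in this set lay between 56.3 and 98.9. The change was 2.25 ± 0.35 on the log2(intensity + 16) scale (adjusted p = 0.000153), and the call also held in a fit with no filter on dim genes. The DMSO arrays lay far under the array median, so the call says that Ccl20 was higher but the size is set largely by the pseudocount and is no measured fold: it was 3.24 with a pseudocount of 1 and 1.28 with a pseudocount of 64.

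MCA at 20 µM gave Ccl20 values of 60.3, 10.9 and 61.2, so that replicates 1 and 3 lay above all DMSO arrays and replicate 2 among them. The change of 0.94 ± 0.35 was not called (adjusted p = 0.274). It passed in the shared fit (adjusted p = 0.0303), and without MCA replicate 2 it was 1.53 (adjusted p = 0.011). BaP at 1.5 µM (6.50, 12.3 and 6.95) and AAF at 10 µM (5.79, 15.1 and 12.5) lay within the DMSO range or just under it. Over the other 14 treatments the change ran from -0.24 to 0.19.

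Ccl5, one of the pair used as interferon readouts, fell at 24 h with BaP and MCA in both sets. Cxcl10, the other, was called lower at 24 h with AAF, BaP and MCA in the literature-dose set and higher with DAT at 700 µM, and whether the sets differed was not tested. At 120 h both genes rose with DAT in the literature-dose set, while in the IC20 set Ccl5 fell with AAF, BaP and MCA and Cxcl10 fell with MCA.

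In the literature-dose set at 24 h, Ccl5 measured 1085, 1042 and 989 in DMSO, 511, 466 and 479 with BaP and 494, 480.2 and 727 with MCA. All treated arrays lay below all DMSO arrays, and the changes were -1.08 ± 0.11 (adjusted p = 1.22e-07) and -0.86 ± 0.11 (adjusted p = 1.81e-05). At 120 h DMSO stood at 567, 811 and 793, BaP at 827, 948 and 977, DAT at 1102, 953 and 1192, and MCA at 763, 859 and 897. Ccl5 rose by 0.60 ± 0.11 with DAT (adjusted p = 0.000203) and by 0.34 ± 0.11 with BaP (adjusted p = 0.0247), and the change of 0.21 with MCA was not called. The BaP call at 120 h was lost without BaP replicate 2 or 3 or DMSO replicate 1 (adjusted p up to 0.228).

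At 24 h of the IC20 set, Ccl5 measured 999.6, 868 and 919.6 in DMSO, 336, 328 and 358 with BaP at 1.5 µM, 430.0, 348 and 421 with MCA at 20 µM, and 960.2, 902 and 1125 with DAT at 700 µM. BaP lowered it by -1.41 ± 0.12 (adjusted p = 1.37e-08), a 2.65-fold difference, and MCA by -1.19 ± 0.12 (adjusted p = 9.97e-07), whereas the DAT arrays overlapped DMSO (0.07). At 120 h DMSO stood at 1618, 1295 and 1512. MCA at 0.1 µM gave 618, 601 and 614, BaP at 0.1 µM 919, 879 and 916, and AAF at 10 µM 1006, 974 and 1128, all below DMSO. The changes were -1.32 ± 0.12 (adjusted p = 3.73e-08), -0.73 ± 0.12 (adjusted p = 0.000828) and -0.55 ± 0.12 (adjusted p = 0.0279). DAT at 0.2 µM, with 1549, 1374 and 1493, lay inside the DMSO range. The AAF and BaP calls were lost without quantile normalization (adjusted p = 0.997 and 0.318), and the AAF call also without AAF replicate 1 or 2 or DMSO replicate 1 or 3 (up to 0.172).

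Cxcl10 measured 2654, 2761 and 2059.7 in DMSO at 24 h of the literature-dose set. It was 1365, 1649 and 1379 with AAF, 1267, 1298 and 1267 with BaP, and 1287, 1506 and 2124 with MCA. The AAF and BaP arrays lay below all DMSO arrays, and MCA replicate 3 overlapped them. The changes were -0.77 ± 0.16 with AAF (adjusted p = 0.0136), -0.94 ± 0.16 with BaP (adjusted p = 0.000152) and -0.63 ± 0.16 with MCA (adjusted p = 0.028). The AAF and MCA calls were lost in the shared fit and without DMSO replicate 1 or 2, the AAF call also without AAF replicate 1 or 3 and the MCA call without MCA replicate 1 or 2 (adjusted p up to 0.231).

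At 120 h Cxcl10 had fallen to 321, 499 and 531 in DMSO, and DAT, at 614, 565 and 725, was above it by 0.52 ± 0.16 (adjusted p = 0.0173). BaP (483, 662 and 628) overlapped DMSO, with a change of 0.36 that passed only with the replicate block (adjusted p = 0.032) or without BaP replicate 1 or DMSO replicate 3. The DAT call was lost in the shared fit and without DMSO replicate 1 or DAT replicate 2 or 3 (adjusted p up to 0.166). With the IC20 doses, DAT at 700 µM gave 2057, 1694 and 2829 against 1248, 1098 and 1113 in DMSO, a rise of 0.82 ± 0.21 (adjusted p = 0.0137). MCA at 0.1 µM for 120 h gave 259, 258 and 402 against 525, 545 and 814, a fall of -1.05 ± 0.21 (adjusted p = 0.00345). Both calls were lost without quantile normalization (adjusted p = 0.0975 and 0.176), and the DAT call without DMSO replicate 2 or DAT replicate 3 (up to 0.104). With the replicate block, BaP at 1.5 µM (-0.54, adjusted p = 0.0204) and AAF at 10 µM for 120 h (-0.60, adjusted p = 0.017) also passed.

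**Figure D2:**
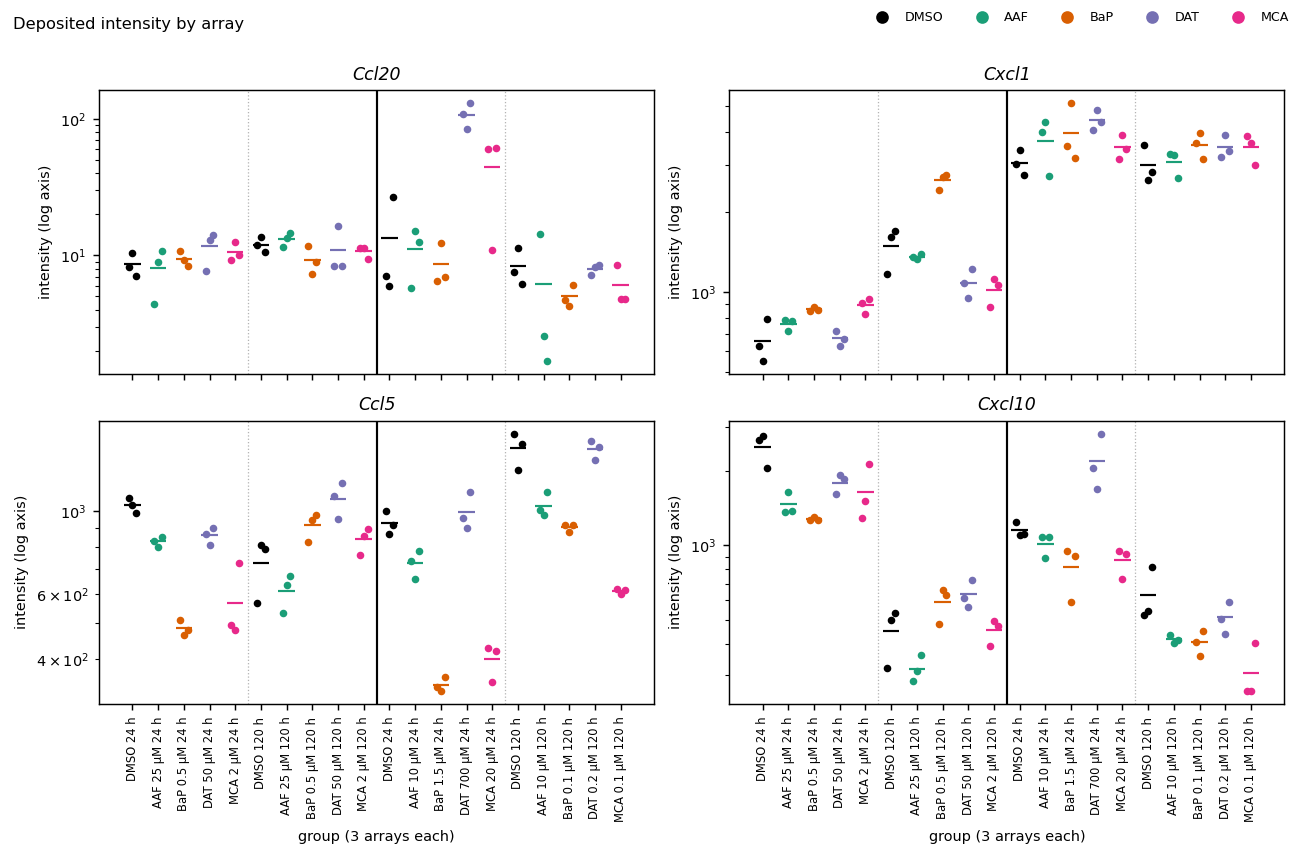
Intensity on a log axis of Ccl20, Cxcl1, Ccl5 and Cxcl10 on each of the 60 arrays by group, where points are arrays, short bars are group means, the solid line parts the sets and dotted lines part 24 h from 120 h. The 3 DAT 700 µM arrays of Ccl20 (83.9 to 130.1) stand above the other groups, and the BaP and MCA arrays of Ccl5 at 24 h lie below DMSO in both sets.

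Cxcl1 rose where Ccl5 and Cxcl10 fell with BaP at 24 h in the literature-dose set (0.37 against -1.08 and -0.94) and with MCA at 24 h (0.44 against -0.86 and -0.63). The Cxcl1 change exceeded those of Ccl5 and Cxcl10 by 1.45 and 1.31 on the log2 scale with BaP and by 1.30 and 1.07 with MCA. The gap was 1.77 and 0.91 with BaP at 1.5 µM, and 1.41 and 0.64 with MCA at 20 µM, at 24 h of the IC20 set, but the Cxcl1 change itself was not called there. At 120 h of that set the gaps were 1.54 and 1.26 with MCA, 0.97 and 0.82 with BaP, 0.59 and 0.64 with AAF and 0.24 and 0.49 with DAT, again with no called change of Cxcl1.

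At 120 h of the literature-dose set the gaps were 0.51 and 0.49 with BaP and 0.14 and 0.40 with AAF. The order was turned there with DAT, where Cxcl1 fell and Ccl5 and Cxcl10 rose (gaps of -1.04 and -0.95). With MCA at 120 h the gaps were -0.77 and -0.58, from a fall of Cxcl1 and no called change in the others. DAT at 700 µM for 24 h raised Ccl20 and Cxcl10, and the Ccl5 change was 0.07 and not called. Its gaps were 0.43 and -0.33, so Cxcl1 exceeded Ccl5 but not Cxcl10. The other gaps at 24 h were 0.53 and 0.99 with AAF at 25 µM, 0.30 and 0.50 with DAT at 50 µM, and 0.58 and 0.41 with AAF at 10 µM. Cxcl1 was not called in these 24 h treatments. These gaps are differences between fitted values of different genes and carry no test.

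**Figure D3:**
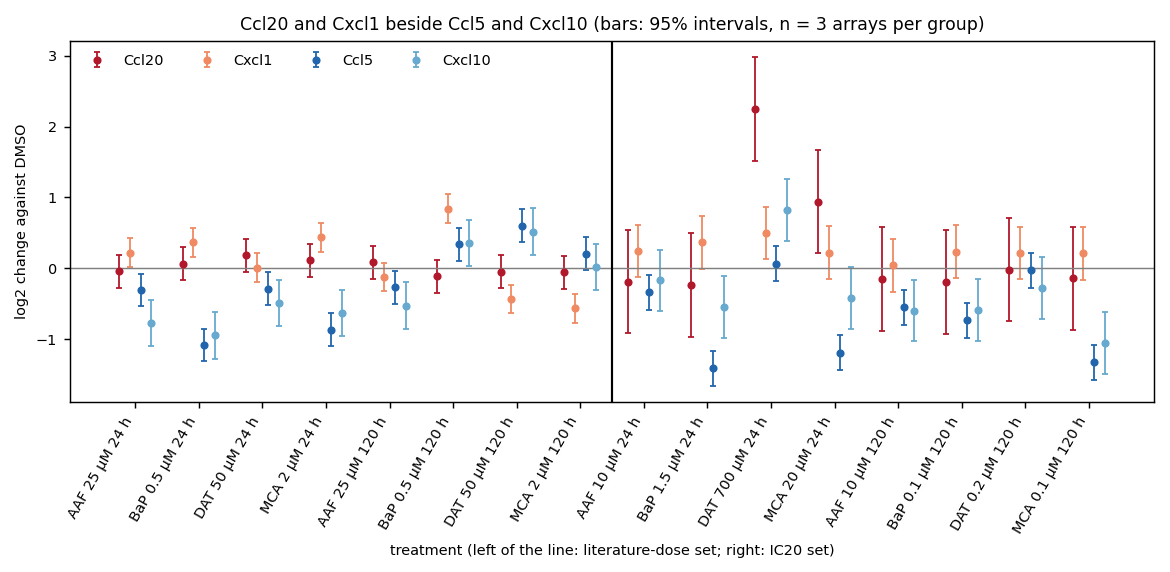
Log2 change against DMSO of Ccl20, Cxcl1, Ccl5 and Cxcl10 in each treatment, with points for the fitted change and bars for its 95% interval. At 24 h with BaP and MCA the Cxcl1 points lie above 0 and the Ccl5 points below it (-0.86 to -1.41), and at 120 h with DAT 50 µM the order is turned.

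Ccl2 and Ccl7, neighbouring monocyte chemoattractant genes on chromosome 11, rose together with BaP, DAT and MCA at 120 h of the literature-dose set, by 1.93-fold to 2.87-fold. Neither was called at 24 h in that set.

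Ccl2 measured 416, 629 and 535 in DMSO at 120 h, 1219, 1624 and 1315 with BaP, 1021, 1037 and 1125 with DAT, and 1323, 1436 and 1375 with MCA. AAF, at 387, 548 and 653, did not part from DMSO, while every array of the other 3 chemicals lay above it. The changes were 1.39 ± 0.14 with BaP (adjusted p = 1.4e-08), 1.02 ± 0.14 with DAT (adjusted p = 3.51e-06) and 1.35 ± 0.14 with MCA (adjusted p = 1.27e-08). The DMSO level at 24 h had been 1959, 1613 and 1412.

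Ccl7 measured 195, 309 and 252 in DMSO at 120 h, 448, 619.9 and 454 with BaP, 558, 541 and 497 with DAT, and 742, 752 and 736 with MCA. Again no treated array overlapped DMSO, and the changes were 0.94 ± 0.15 (adjusted p = 1.44e-05), 1.09 ± 0.15 (adjusted p = 2.85e-06) and 1.52 ± 0.15 (adjusted p = 3.45e-09).

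Of the 2 genes, Ccl2 was also called higher with DAT at 700 µM, and Ccl7 was not called in the main fit. Ccl2 gave 7377, 5988 and 8812 against 3953, 3481 and 5289 in DMSO, a rise of 0.83 ± 0.22 (adjusted p = 0.0164). Ccl7 gave 4242, 3454 and 5183 against 2412, 2367 and 3489.9, so the deposited values overlapped. Its change of 0.62 missed the threshold (adjusted p = 0.121) but passed with the replicate block (adjusted p = 0.00034). The Ccl2 call was lost without quantile normalization and without DMSO replicate 1 or 2 or DAT replicate 3 (adjusted p up to 0.187). The block also brought under the threshold the falls of Ccl2 (-0.53, adjusted p = 0.0291) and Ccl7 (-0.55, adjusted p = 0.039) with AAF at 25 µM for 24 h. It did the same for Ccl2 with MCA at 20 µM (0.45, adjusted p = 0.000317) and with AAF at 10 µM for 120 h (-0.51, adjusted p = 0.000144).

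Ccl9, a macrophage inflammatory protein of the CC family, was the one chemokine whose fitted change was below 0 in all 16 treatments, and it was called lower in 6 of them. In the literature-dose set at 24 h it measured 419.5, 281 and 353 in DMSO and 176, 139 and 148 with BaP, a fall of -1.11 ± 0.11 (adjusted p = 5.89e-08). At 120 h DMSO stood at 114, 156 and 152, BaP at 59.9, 78.6 and 62.1, DAT at 115, 83.6 and 123, and MCA at 81.4, 99.1 and 90.2. The changes were -0.95 ± 0.11 with BaP (adjusted p = 1.58e-07), -0.34 ± 0.11 with DAT (adjusted p = 0.0278) and -0.51 ± 0.11 with MCA (adjusted p = 0.000544). The DAT arrays overlapped DMSO, and that call was lost in the shared fit, without quantile normalization, and without DMSO replicate 2 or 3 or DAT replicate 1 or 2 (adjusted p up to 0.216).

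BaP at 1.5 µM gave Ccl9 values of 681, 642 and 815 against 1563, 1422 and 1813 in DMSO, a fall of -1.14 ± 0.19 (adjusted p = 0.000883). MCA at 0.1 µM for 120 h gave 269, 279 and 318 against 427, 475 and 674, a fall of -0.83 ± 0.19 (adjusted p = 0.0124). The MCA call was lost without quantile normalization, without DMSO replicate 3 or MCA replicate 1 (adjusted p up to 0.138), and in the second Ccl9 probe set, where the change was -0.26 (adjusted p = 0.879). With the replicate block, MCA at 20 µM (-0.61, adjusted p = 0.00173) and AAF at 10 µM for 120 h (-0.57, adjusted p = 0.00466) were also called lower.

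Cxcl12, the stromal ligand of Cxcr4, had the narrowest range of the 10 genes, by the ratio of its highest to its lowest array in each set, running from 2159.9 to 3686 in the literature-dose set and from 7690.1 to 10843 in the IC20 set. Its 1 called treatment was MCA at 2 µM for 120 h, with 2183, 2659 and 2159.9 against 3523, 3466 and 3064 in DMSO. All 3 MCA arrays were lower, by -0.51 ± 0.06 (adjusted p = 2.39e-07), and another Cxcl12 probe set fell by -0.58.

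Cx3cl1, which encodes fractalkine, rose with AAF at both times and with DAT and MCA at 120 h of the literature-dose set. At 120 h it measured 431, 429 and 353 in DMSO, 1115, 966 and 1031 with DAT, 1349, 1306 and 1267 with MCA, and 497, 652 and 669.7 with AAF. The treated arrays all lay above DMSO, and the changes were 1.35 ± 0.09 with DAT (adjusted p = 1.41e-11), 1.63 ± 0.09 with MCA (adjusted p = 6.65e-14), or 3.10-fold, and 0.52 ± 0.09 with AAF (adjusted p = 0.00261). BaP, with 436, 477 and 409.6, gave a change of 0.07 that was not called. At 24 h AAF gave 466, 436 and 448 against 343, 290.4 and 338, a rise of 0.46 ± 0.09 (adjusted p = 0.00867). Both AAF calls were lost in the shared fit and in the second probe set, the first without AAF replicate 1 or DMSO replicate 1 at 24 h and the other without AAF replicate 3 at 120 h (adjusted p up to 0.0647). In the IC20 set, where the range was 769 to 1534, the changes lay between -0.30 and 0.18 and none was called by limma.

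**Figure D4:**
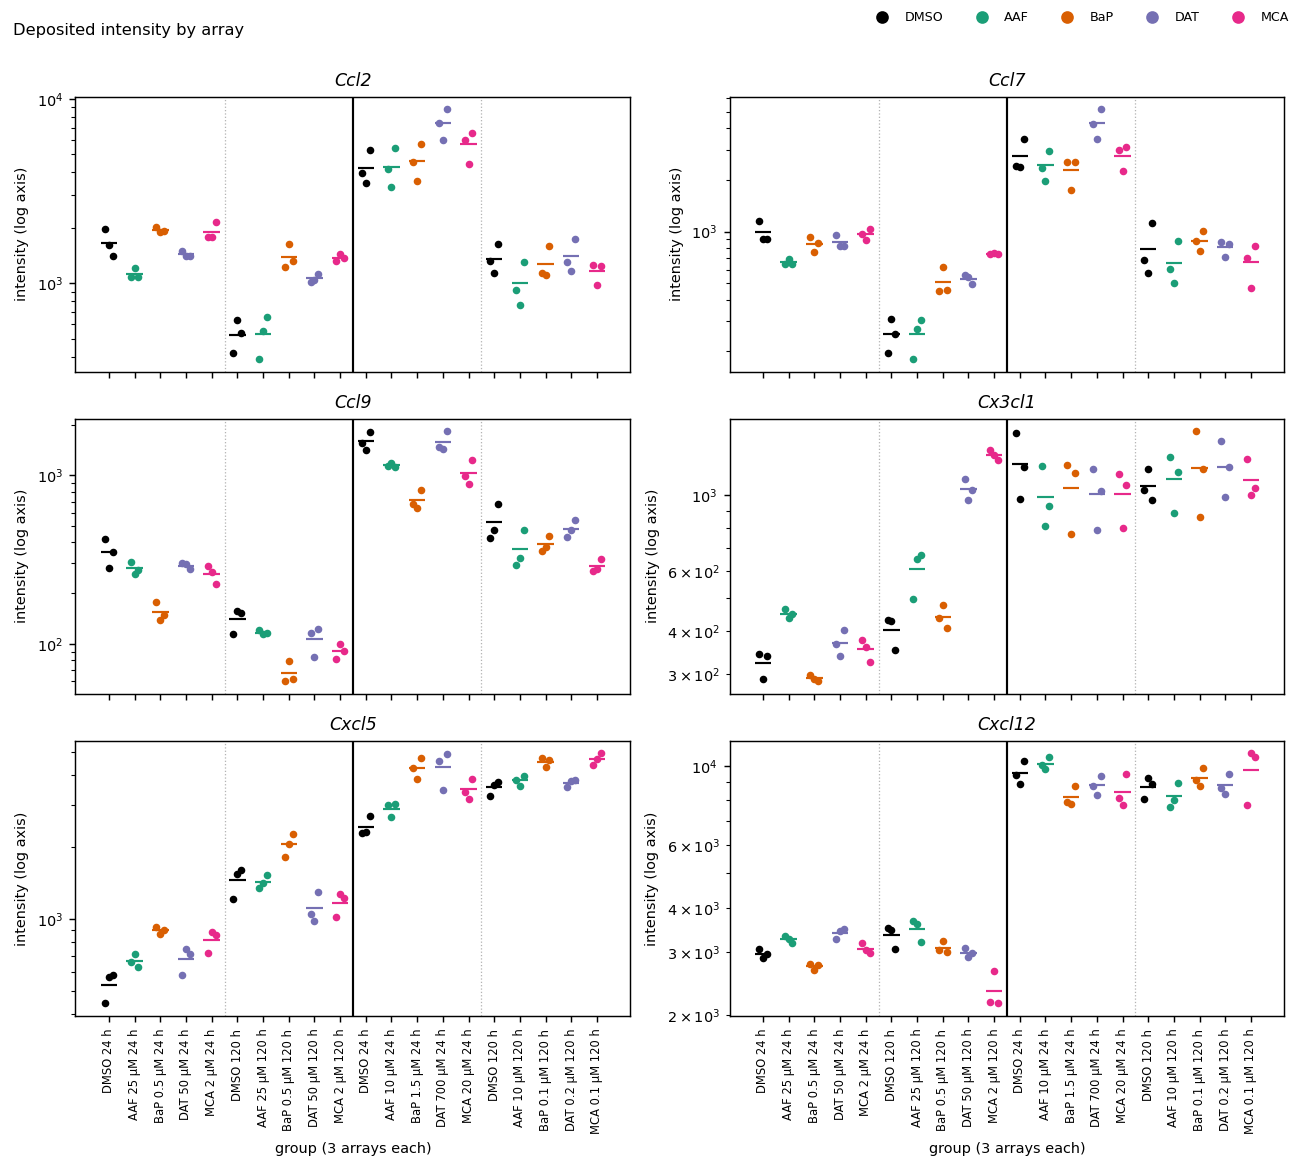
Intensity on a log axis of Cxcl5, Ccl2, Ccl7, Ccl9, Cxcl12 and Cx3cl1 on each of the 60 arrays by group, where points are arrays, short bars are group means, the solid line parts the sets and dotted lines part 24 h from 120 h. At 120 h of the literature-dose set the Ccl2 arrays with BaP, DAT and MCA (1021 to 1624) lie above DMSO (416 to 629), and the Cxcl12 points stay within a narrow band.

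Time in culture moved the chemokines in the DMSO controls too. Between 24 h and 120 h, 9 of the 10 genes changed in the literature-dose set, 4 higher and 5 lower, where 57.7% of all genes were called. In the IC20 set 6 changed, 2 higher and 4 lower, where 40.2% of all genes were called. Ccl2, Ccl7, Ccl9 and Cxcl10 fell in both sets. Of the 9 fibroblast markers, 7 rose and 2 fell over the same time in the literature-dose set and 6 rose and 2 fell in the IC20 set, and their part in these changes was not tested. Measures of RNA quality moved as well. In the literature-dose set the log2 ratio of 3′ to 5′ Gapdh probe sets was -0.20 to -0.15 at 120 h and -0.31 to -0.25 at 24 h. In the IC20 set it was -0.55 to -0.41 at 120 h and -0.35 to -0.28 at 24 h, and that of actin was 0.40 to 0.64 and 0.21 to 0.35. Their part was not tested either.

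Cxcl10 fell by -2.40 ± 0.16 in the literature-dose set (adjusted p = 4.03e-13), or 5.29-fold. Its fall in the IC20 set, from 1248, 1098 and 1113 to 525, 545 and 814, had a 95% interval of -1.43 to -0.57 (adjusted p = 0.000395). Ccl7 fell by -1.91 ± 0.15 (adjusted p = 1.05e-11) and -1.81 ± 0.24 (adjusted p = 9.36e-07), and Ccl2 by -1.58 ± 0.14 (adjusted p = 1.77e-10) and -1.53 ± 0.22 (adjusted p = 2.75e-06). Ccl9 fell by -1.26 ± 0.11 (adjusted p = 1.37e-10) and -1.71 ± 0.19 (adjusted p = 6.24e-08). These falls exceeded the spread between arrays, and no DMSO array at 120 h overlapped those at 24 h for any of the 4 genes.

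Cxcl5 rose by 1.47 ± 0.12 in the literature-dose set (adjusted p = 2.87e-11) and by 0.66 ± 0.09 in the IC20 set (adjusted p = 2.55e-06). Cxcl1 rose by 1.19 ± 0.10 in the literature-dose set (adjusted p = 4.14e-11), and its change of 0.09 ± 0.18 in the IC20 set was not called. Cxcl12 (0.18 ± 0.06, adjusted p = 0.0173) and Cx3cl1 (0.31 ± 0.09, adjusted p = 0.0028) were a little higher at 120 h in the literature-dose set. Ccl5 went opposite ways, lower by -0.49 ± 0.11 in the literature-dose set (adjusted p = 0.000429) and higher by 0.62 ± 0.12 in the IC20 set (adjusted p = 0.000137). The rises of Cxcl5 and Ccl5 in the IC20 set and those of Cxcl12 and Cx3cl1 were lost without quantile normalization (adjusted p up to 0.744). The Cxcl12 call was also lost without DMSO replicate 1 or 2 at 120 h (up to 0.101).

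**Figure D5:**
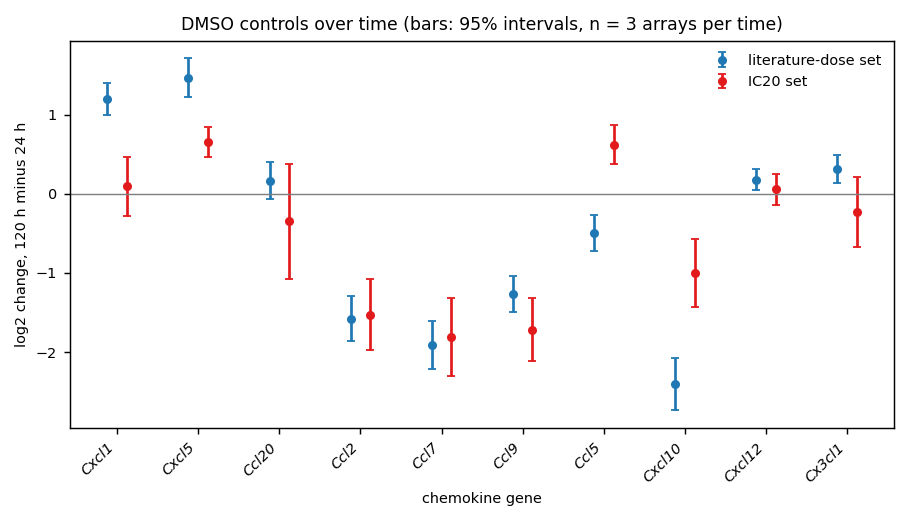
Log2 change of each chemokine gene in the DMSO controls at 120 h against 24 h, with points for the fitted change in each set and bars for its 95% interval. Ccl2, Ccl7, Ccl9 and Cxcl10 lie below 0 in both sets, and Ccl5 lies below 0 in the literature-dose set (-0.49) and above 0 in the IC20 set (0.62).

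The response to a chemical was compared between times where both used the same concentration, as the change at 120 h minus the change at 24 h. With BaP at 0.5 µM, 5 of the 10 genes had a higher response at 120 h and none a lower one, where 8.51% of all genes were called. With DAT at 50 µM, 5 were higher and 3 lower, against 8.21%, and with MCA at 2 µM also 5 higher and 3 lower, against 28.2%. AAF gave no called difference by limma at 25 µM or at 10 µM, where 0.0554% and 0% of all genes were called and 4 and 0 chemokines had an unadjusted p under 0.05. In the fit with the replicate block, Ccl2 passed for AAF at 10 µM (-0.54, adjusted p = 0.0421).

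Ccl5 showed the widest difference with BaP, 1.42 ± 0.16 (adjusted p = 8.04e-07), since it fell at 24 h and rose at 120 h. Cxcl10 differed by 1.30 ± 0.22 (adjusted p = 0.000248), Ccl7 by 1.17 ± 0.21 (adjusted p = 0.000359) and Ccl2 by 1.14 ± 0.20 (adjusted p = 0.000289). For Cxcl1 the difference had opposite signs between chemicals, 0.47 ± 0.14 with BaP (adjusted p = 0.0311) and -1.002 ± 0.14 with MCA (adjusted p = 4.58e-06). Cx3cl1 differed by 1.51 ± 0.12 with MCA (adjusted p = 2.05e-09) and 1.21 ± 0.12 with DAT (adjusted p = 5.45e-07). The BaP difference of Cxcl1 was lost in the shared fit and without BaP replicate 1 or 3 or DMSO replicate 3 at 24 h, or BaP replicate 2 or 3 or DMSO replicate 1 at 120 h (adjusted p up to 0.38).

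BaP and MCA, both polycyclic aromatic hydrocarbons, were given at one matched concentration and time, 0.1 µM for 120 h in the IC20 set, and this was the one pair of chemicals compared. Ccl5 was higher with BaP (919, 879 and 916) than with MCA (618, 601 and 614), by 0.59 (95% interval 0.35 to 0.84, adjusted p = 0.0475), where 0.0791% of all genes were called. The arrays did not overlap, yet the call was lost without any one of the 6 arrays (adjusted p up to 0.237), without quantile normalization and with no filter. Of the 30 fits that each left out 1 array of the IC20 set, inside or outside the pair, 25 lost it. Outside the pair, the call was lost without any AAF, BaP 1.5 µM, DAT 0.2 µM or 24 h DMSO array. It was also lost without DMSO replicate 3 at 120 h, DAT 700 µM replicate 1 or 2, or MCA 20 µM replicate 3. For the other 9 genes no difference was called. The 95% intervals, not adjusted over genes, ran from 0.08 to 0.86 for Ccl9, 0.03 to 0.90 for Cxcl10, -0.02 to 0.96 for Ccl7, -0.32 to 0.57 for Ccl2, -0.36 to 0.52 for Cx3cl1, -0.35 to 0.40 for Cxcl1, -0.24 to 0.14 for Cxcl5, -0.27 to 0.13 for Cxcl12 and -0.78 to 0.68 for Ccl20, so the data allow differences of these sizes.

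Across the 20 group means, each centred on its set, the genes most like each other among the 10 were Ccl2 and Ccl7 (Pearson r = 0.97), followed by Ccl9 and Cxcl10 (0.90) and Cxcl1 and Cxcl5 (0.89). Ccl5 and Cxcl10 had r = -0.02, and Ccl20 and Cxcl1 r = 0.13. Over all tested genes, those most like Ccl5 were Ifit1 (0.94), Rtp4 (0.92) and Irf9 (0.91), which are known interferon-stimulated genes. Those most like Cxcl10 were Clic4 (0.96), Sfxn2 (0.96) and Abhd5 (0.94). Dusp16 (0.95), Tigar (0.93) and Rrp1 (0.91) were most like Cxcl1, and Fndc5 (0.88), Rassf1 (0.88) and Fam83g (0.87) most like Ccl20. The group means share normalization and culture time, so these values describe these 20 groups only. Ccl20 was near the floor of the arrays in almost all groups. Its r values, that with Cxcl1 included, therefore rest largely on DAT at 700 µM for 24 h. They say little about likeness to Ccl20 in the other groups.

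Genes of the interferon pathway are set beside Ccl5 and Cxcl10 here. Of the 25 listed, 22 were named on the array and 20 tested. Between 24 h and 120 h in DMSO of the IC20 set, 16 of the 20 rose and 1 fell (median 0.90), where 40.2% of all genes were called. Ccl5 rose over that time but Cxcl10 fell, against the list. In DMSO of the literature-dose set 3 rose and 6 fell (median -0.13), where 57.7% of all genes were called, and Ccl5 and Cxcl10 both fell. With BaP at 24 h in the literature-dose set 16 of 20 fell and 1 rose (median -0.81), and with MCA 11 fell and 1 rose (median -0.46), while AAF lowered 1. BaP at 120 h raised 5 and lowered 5. With DAT at 120 h 15 rose and 1 fell, and with MCA at 120 h 9 fell and none rose, although Ccl5 and Cxcl10 were not called there. Of all genes, in either direction, 9.42% were called with BaP and 2.22% with MCA at 24 h. At 120 h the shares were 26.8% with BaP, 23.7% with DAT and 39.1% with MCA. The total of 9 with MCA at 120 h lies near that share. All 9 were lower, however, whereas 48.2% of all genes called there were higher, and this difference in direction was not tested. Of the IC20 set's 24 h treatments, BaP lowered 11 and raised 2, MCA lowered 5 and raised 2, and DAT raised 4 and lowered none. At 120 h of that set 12 fell and 1 rose with MCA (median -0.70), 5 fell with BaP and 3 fell with AAF. The share of all genes called in the IC20 set was 2.4% with BaP, 1.31% with MCA and 7.85% with DAT at 24 h, and 2.47% with MCA, 1.44% with BaP and 0.562% with AAF at 120 h. Without quantile normalization the falls called dropped to 4 with MCA at 120 h of the literature-dose set, and to 4 with BaP and 3 with MCA at 24 h and 5 with MCA at 120 h of the IC20 set, with 0 left for BaP and AAF at 120 h.

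Of 29 listed genes of NF-kappaB signalling and inflammation, 28 were on the array and 25 tested. In the literature-dose set 5 rose and 2 fell with BaP and 3 rose with MCA at 24 h, 9 rose and 3 fell with BaP at 120 h, 4 rose and 2 fell with DAT at 120 h, and 5 rose and 4 fell with MCA at 120 h. Against the shares of all genes just given, the counts with DAT and MCA at 120 h are near or below the background and say nothing about the list. DAT at 700 µM, where Ccl20 also rose, raised 7 and lowered none, beside 7.85% of all genes called. BaP at 1.5 µM raised 3 and lowered 1, MCA at 20 µM raised 3, and MCA at 0.1 µM raised 2. Ptgs2, the inducible cyclooxygenase, rose in 12 of 16 treatments, by 2.53 with BaP and 2.61 with MCA at 120 h of the literature-dose set and by 1.75 with DAT at 700 µM. Birc3 was called higher in 5 treatments and lower in 0, whereas Vcam1 was called lower in 5 and higher in 0. Lif, a cytokine of the interleukin-6 family, rose by 1.38 with DAT at 700 µM.

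Among other chemokine ligands, 25 of 26 were on the array and 14 tested. At 120 h of the literature-dose set 1 of the 14 rose and 3 fell with BaP, 2 rose and 2 fell with DAT, and 3 rose and 2 fell with MCA. Of all genes, 26.8%, 23.7% and 39.1% were called there. These counts are near the background and say nothing about the list. Ccl8, a monocyte chemoattractant related to Ccl2 and Ccl7, was called higher in 7 treatments, by 1.03 with BaP, 1.54 with DAT and 1.86 with MCA at 120 h of the literature-dose set. Cxcl11, a Cxcr3 ligand like Cxcl10, was called lower in 4, by -1.17 with BaP at 24 h and -1.90 with MCA at 0.1 µM for 120 h. Pf4 was lower with BaP, DAT and MCA at 120 h of the literature-dose set (-0.92, -0.89 and -0.61). Of 23 receptors, 21 were on the array and 11 tested. At 120 h of the literature-dose set 1 of the 11 was called with DAT and 1 with MCA, below the shares of all genes. Ccr6, Cxcr2, Cxcr4 and Cx3cr1 exceeded the array median on 0 arrays, Cxcr3 on 11 and Ccr2 on 14. The scavenging receptor Ackr3 was above it on all 60, and was called higher with DAT and MCA at 120 h of the literature-dose set (0.36 and 0.62) and lower with DAT at 700 µM (-0.53). Of the sheddases that release Cx3cl1, Adam17 was called higher in 4 treatments and Adam10 lower in 1.

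Markers of cell types were read by how many arrays each exceeded the array median on, with no level of one probe set held against another's. All 9 fibroblast markers, collagen genes among them, exceeded it on all 60 arrays, and their sum ran from 35035 to 54658 in the literature-dose set and from 103625 to 175999 in the IC20 set. Of the 8 leukocyte markers on the array, Ptprc and Itgam exceeded the median on 0 arrays and Cd3e on 3, but Cd68 did on 23, Adgre1 on 29, Csf1r on 59 and Cd14 and Lyz2 on all 60. Cd14 was called higher in 5 treatments, Lyz2 higher in 2 and lower in 1, and Cd68 higher in 1. The leukocyte sum ran from 527 to 775 and from 749.6 to 1579.6, and its part in the chemokine results was not tested. Of the 5 endothelial markers, Kdr exceeded the median on 1 array and the other 4 on 0, and the sum ran from 40.1 to 82.4 and from 53.4 to 166. Of the 5 epithelial markers, Epcam exceeded it on 53 arrays, Krt8 on 13, Cdh1 on 1 and Krt18 and Krt19 on 0, and the sum ran from 153 to 314 and from 102 to 396. The log2 ratio of 3′ to 5′ actin probe sets, a measure of RNA quality, was 0.39 to 0.51 with BaP and 0.34 to 0.39 with AAF at 120 h of the literature-dose set, above 0.28 to 0.33 in DMSO, and its part in those results was not tested. The like ratio for Gapdh overlapped DMSO in both, and in the other 14 treatments neither ratio parted from DMSO.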

How the data were processed

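RNA was measured on 60 Affymetrix mouse arrays (20 groups of 3) after RNeasy extraction and biotin labelling, per the labels' protocols. The authors deposited 1 signal intensity for each of 45101 probe sets and array; GCOS is named, without a version, per the submitters' processing notes, and its scaling settings are not given in the sources used here. Probe sets were named from the platform annotation: 34958 had 1 symbol, 932 several and 9211 none here, leaving 18194 genes, each read from its brightest probe set by mean. Genes above the array median on at least 3 arrays were tested (12637). From the deposited intensities, log2(intensity + 16) was computed, quantile normalized within each set and fitted by limma (version 3.58.1, R 4.3.3) with a trend on mean level, 10 group means and 20 residual degrees of freedom per set; p-values were Benjamini-Hochberg adjusted over all tested genes per comparison, with a threshold of 0.05. The fit was tested on simulated data. The number of arrays limits the precision. No 2 arrays held identical values (highest correlation between arrays 0.998).

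Same-numbered replicates deviated together, with all 3 correlations over 0.1, in 14 of 19 comparisons between groups. The 19 include DMSO over time and the BaP and MCA pair at 0.1 µM. In those 14 the number was taken to pair the arrays, and the labels do not say what it stands for. The main fit, which gave the calls and SE above, did not use this pairing. The number entered only in the alternative fit with the replicate block. Comparisons without such pairing were the literature-dose set's MCA at 24 h, DAT at 120 h and DMSO over time, and the IC20 set's BaP at 0.1 µM and DAT at 0.2 µM. The named genes are the 10 chemokines, the 3 genes most like each of 4 of them, and members of listed pathways called in the most treatments. The chemokines and lists were chosen with earlier results of these data known. Alternatives were a shared fit, other normalizations, pseudocounts, filters, probe sets, a replicate block and leaving out each array; a fit of each comparison's 6 arrays alone was added after seeing the data.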

Additional observations from a re-analysis of the deposited data

Results flagged for a closer look

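The response to a chemical differed between 120 h and 24 h at the same concentration, by the fit's test of the difference itself, in 21 chemokine tests of the literature-dose set; each value is the log2 change at 120 h minus that at 24 h. With BaP at 0.5 µM the differences were 0.47 for Cxcl1, 1.14 for Ccl2, 1.17 for Ccl7, 1.42 for Ccl5 and 1.30 for Cxcl10. With DAT at 50 µM they were -0.44 for Cxcl1, -0.70 for Cxcl5, 1.24 for Ccl2, 1.29 for Ccl7, 0.89 for Ccl5, 1.01 for Cxcl10, -0.30 for Cxcl12 and 1.21 for Cx3cl1. With MCA at 2 µM they were -1.002 for Cxcl1, -0.95 for Cxcl5, 1.15 for Ccl2, 1.55 for Ccl7, 1.07 for Ccl5, 0.65 for Cxcl10, -0.57 for Cxcl12 and 1.51 for Cx3cl1. Ccl5 in DMSO moved by -0.49 between 24 h and 120 h in the literature-dose set and by 0.62 in the IC20 set, with no array going against its set's direction; this difference between the sets was not tested.

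Some of these differences did not hold when 1 array was left out. Those of Cxcl1 with DAT (adjusted p up to 0.148 over 9 of 12 arrays), Cxcl12 with DAT (up to 0.0991 over 8 of 12) and Cxcl10 with MCA (up to 0.131 over 7 of 12) were lost. The arrays for Cxcl1 with DAT were all 3 DAT arrays and DMSO replicates 1 and 2 at 24 h, and DAT replicates 1 and 2 and DMSO replicates 2 and 3 at 120 h. For Cxcl12 they were replicates 2 and 3 of DAT and DMSO at 24 h, and DAT replicates 1 and 3 and DMSO replicates 1 and 2 at 120 h. For Cxcl10 with MCA they were replicates 1 and 2 of MCA and DMSO at 24 h, and MCA replicates 2 and 3 and DMSO replicate 1 at 120 h.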

How the results depend on the processing

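Of 240 chemokine tests 86 were called. Of these, 54 held under all 10 alternatives, in the fits of 6 arrays where made, and without any 1 array of the groups compared. An alternative or a fit of 6 arrays lost 31, and a fit without 1 array of the groups compared lost 23. Fits without an array from outside the groups compared were not counted here. Without quantile normalization, with arrays centred on their median, 3 genes were called higher and 4 lower over the IC20 set's treatments, in place of 8 and 8, and the BaP and MCA pair gave 0 calls. The pair also gave 0 calls with no filter. In the fits of 6 arrays, added after seeing the data, 4 were lower in the IC20 set and the pair gave 0. With the replicate number as a block, 14 were lower in the IC20 set; the block took no call away, and the calls it added stand with their genes. In the unpaired BaP comparison at 0.1 µM, Cxcl10 also passed with it (0.0148).

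Leaving out each array, counts ran from 16 to 20 (higher) and 11 to 17 (lower) in the literature-dose set's treatments, 5 to 8 and 6 to 9 in the IC20 set's, 14 to 15 over time in DMSO, 18 to 21 for response differences and 0 to 1 for the pair. The count of 5 came without DMSO replicate 2 at 24 h of the IC20 set. Between 24 h and 120 h in DMSO of the IC20 set, Cxcl1 (0.09) and Cxcl12 (0.06), neither called, turned to -0.49 and -0.58 without quantile normalization, where the median of all tested genes moved to -0.35 and 15.9% of calls were higher, in place of 44.3%. The higher share of calls also moved from 51.6% to 62.5% with BaP, 49.4% to 59.4% with DAT and 48.2% to 62.6% with MCA at 120 h of the literature-dose set, and from 49.8% to 26.1% with BaP at 1.5 µM and 47.6% to 23.3% with MCA at 20 µM. The cause was not tested. Signal near the floor limits Ccl20 in every group but DAT at 700 µM.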
